A study of Homo sapiens with 18 samples.

Results

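The insulin-like growth factor (IGF) binding proteins IGFBP1, IGFBP2, IGFBP3, IGFBP4, IGFBP5, IGFBP6 and IGFBP7 were described in pleural mesothelioma cells treated with VT107, an inhibitor of all TEAD transcription factors. The family was chosen by gene symbol. All 7 members had a row among the 30954 genes of the H2052 count table, and 5 of the 7 had a row among the 19284 genes of the H226 table. The family was selected with the lower IGFBP3 RNA in VT107-treated parental H2052 cells already known. Values of that contrast, and of contrasts that hold its VT107 libraries, are therefore given as a description without a test. The baseline contrast of the genotypes was tested but shares the parental DMSO libraries with it, so the baseline value of IGFBP3 is given without a p.

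PolyA RNA was sequenced from NCI-H2052 cells, which carry NF2 and LATS2 mutations, and from NCI-H226 cells, which lack NF2. All cells were grown in RPMI with 10% FBS. The 6 groups were parental H2052, NF1 mutant H2052 and H226 cells, each given 1 µM VT107 or the equivalent volume of DMSO for 24 h, with 3 replicates per group. NF1 encodes neurofibromin, which restrains RAS and MAPK signaling. The NF1 mutant cells were made by lentiviral Cas9 and a guide RNA, followed by drug selection of the transduced cells. The sources used here do not give which guide the sequenced cells carried, or whether the parental cells carried Cas9. Levels are in CPM (counts scaled to a common library size by TMM normalization) and compare a gene between groups, not genes with each other, and fold changes are on the log2 scale with their standard error (SE).

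IGF binding proteins are secreted proteins that bind IGF1 and IGF2 in the extracellular space, extend their half-life and control their access to the IGF1 receptor. IGFBP1 to IGFBP6 bind IGFs with high affinity, while IGFBP7 binds them weakly. Proteases that cleave the binding proteins release the growth factors, and several members also act on cells without IGF. TEAD factors bind DNA together with YAP or TAZ, and IGFBP3 is a well-known target gene of YAP in cells with Hippo pathway mutations.

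The promoters of the members were read from RefSeq (GRCh38.p14), in windows from 250 bases before to 50 bases after each start. The table held 3 windows for IGFBP2 and 1 each for IGFBP3, IGFBP4, IGFBP5 and IGFBP6, which made 7 windows. IGFBP1 and IGFBP7 were not in it. The TEAD core motif GGAATG was searched on both strands, where it reads CATTCC on the other strand, and it was present in 14.0% of all 35116 promoter windows. Among the 7 windows of the members it was found in 2, those of IGFBP5 and IGFBP6. The AP-1 motif TGANTCA was searched on both strands, was present in 7.71% of all windows and was found in none of the 7. The sense strand was searched for the TATA motif TATANA, which was present in 14.1% of all windows, and IGFBP3 and IGFBP4 held it. The motifs do not overlap in these windows. The sequences below are shown because IGFBP3 had the most negative VT107 response in both genotypes and IGFBP5 the most positive in NF1 mutant cells, and IGFBP6 shares the TEAD core with IGFBP5. They run 5′ to 3′ on the strand of the gene, with the matched motif in capitals. The IGFBP3 sequence holds the 250 bases before the start, with the TATA motif beginning 30 bases before it (minus strand, chr7:45921273-45921522). The IGFBP5 match begins 235 bases before the start (minus strand, chr2:216695767-216695796). The IGFBP6 match begins 101 bases before the start (plus strand, chr12:53097554-53097583).
IGFBP3: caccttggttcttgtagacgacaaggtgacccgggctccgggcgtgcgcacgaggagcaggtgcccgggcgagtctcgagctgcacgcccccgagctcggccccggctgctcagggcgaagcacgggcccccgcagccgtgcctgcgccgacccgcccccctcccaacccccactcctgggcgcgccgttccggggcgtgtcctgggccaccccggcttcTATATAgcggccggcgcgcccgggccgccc
IGFBP5: gcccctttcttaCATTCCggggggaggagg
IGFBP6: cacccagtttagGGAATGcccctgccctct
A match describes letters in a window and is not a measured binding site.

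Coordinates of the genes are those of hg19, the build of the count tables. IGFBP1 (chromosome 7, from 45927956 to 45933267, plus strand) and IGFBP3 (chromosome 7, from 45951850 to 45961473, minus strand) are neighbors, with 18582 bases and no listed gene between them. IGFBP2 (chromosome 2, from 217497551 to 217529159, plus strand) and IGFBP5 (chromosome 2, from 217536828 to 217560248, minus strand) are neighbors as well, 7668 bases apart. IGFBP4 (chromosome 17, from 38599702 to 38613983, plus strand) and IGFBP6 (chromosome 12, from 53491220 to 53496129, plus strand) stand alone and overlap no listed gene. IGFBP7 (chromosome 4, from 57896939 to 57976551, minus strand) shares 34831 bases with ENSG00000250610, a listed gene of the same strand. Both had the same count in 10 of 12 libraries and differed by 1 count in the others, so their reads cannot be told apart. IGFBP7 also shares 396 bases with POLR2B, an RNA polymerase II subunit gene on the opposite strand.

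The sum of counts per library was 10950284 to 13418485 in parental H2052, 3285363 to 5489092 in NF1 mutant H2052 and 1387223 to 1726786 in H226 cells, which gives the parental libraries the smallest counting error. NF1 RNA was 26.3 to 68.3 CPM in parental and 8.29 to 18.2 CPM in NF1 mutant libraries, and the ranges did not overlap. The genotypes also differ in depth and in the naming of their libraries, so genotype cannot be told apart from other differences between these library sets. NF1 mutant VT107 replicate 1 stood apart, with a median absolute difference of 0.909 on the log2 scale from the other 2 libraries of its group over 11432 genes, against 0.152 to 0.548 for the other libraries. The parental replicate 3 libraries were farther from their groups in DMSO (0.383) and in VT107 (0.490) than replicates 1 and 2 (0.214 to 0.307). Of 9 mesothelial markers, 7 to 9 reached 0.5 CPM in every library of a group, with WT1 at 18.6 to 49.0 CPM and MSLN at 13.1 to 71.4 CPM. CALB2 ranged from 0 to 8.29 CPM and UPK3B from 0.290 to 1.47 CPM. Of the 6 leukocyte markers only CORO1A (9.57 to 27.4 CPM) reached 0.5 CPM in every library of a group, and PTPRC did not exceed 0.271 CPM. No endothelial or liver marker reached that level. Summed leukocyte markers ranged from 9.76 to 16.9 CPM in parental and from 13.3 to 28.9 CPM in NF1 mutant libraries.

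In parental cells the member that stood out was IGFBP3, the main IGF carrier of the circulation. Its level was 110, 104 and 149 CPM in the DMSO libraries of replicates 1, 2 and 3, and 24.6, 23.5 and 15.1 CPM in the VT107 libraries. All VT107 libraries lay below all DMSO libraries, and the log2 fold change was -2.52 (SE 0.26), which is 5.72-fold lower. In bulk RNA, fewer expressing cells and less RNA per cell cannot be told apart. With the replicate number as a block the log2 fold change was -2.51 (SE 0.21). Without both replicate 3 libraries, an alternative chosen after seeing the data, it was -2.11 (SE 0.10). The groups also did not overlap for IGFBP1, a binding protein best known from the liver, at 1.45, 2.25 and 2.25 CPM in DMSO and 0.643, 1.26 and 0.946 CPM in VT107. Its log2 fold change was -1.05 (SE 0.37), on 9 to 31 counts per library. These were 2 of 7 members, and the groups did not overlap for 10.5% of the 12891 genes in this comparison. Since the family was selected with this contrast known, nothing is read from that share.

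The other members overlapped between DMSO and VT107 in parental cells. IGFBP2 was 30.1, 37.7 and 18.04 CPM in DMSO and 33.9, 33.1 and 31.1 CPM in VT107 (log2 fold change 0.21, SE 0.26). IGFBP4, an inhibitory binding protein that PAPP-A cleaves, was 515, 513 and 653 CPM in DMSO and 487, 441 and 640 CPM in VT107 (log2 fold change -0.09, SE 0.22). In both groups its highest level was in replicate 3. IGFBP5, a binding protein that attaches to extracellular matrix, was 6.77, 5.15 and 8.84 CPM in DMSO and 7.43, 5.15 and 11.0 CPM in VT107 (log2 fold change 0.20, SE 0.36). IGFBP6, which prefers IGF2, was 136, 136 and 304 CPM in DMSO and 147, 161 and 404 CPM in VT107 (log2 fold change 0.32, SE 0.51). Each VT107 library of IGFBP6 was above the DMSO library with its number, and with the replicate block the value was 0.28 (SE 0.11). IGFBP7, which is found in the matrix around vessels, was 301, 308 and 212 CPM in DMSO and 312, 297 and 206 CPM in VT107 (log2 fold change 0.005, SE 0.22). In both treatments replicate 3 held the highest IGFBP4, IGFBP5 and IGFBP6 and the lowest IGFBP7 of its group. Over the 7 members the median log2 fold change was 0.005, against 0.01 over all 12891 genes.

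**Figure D1:**
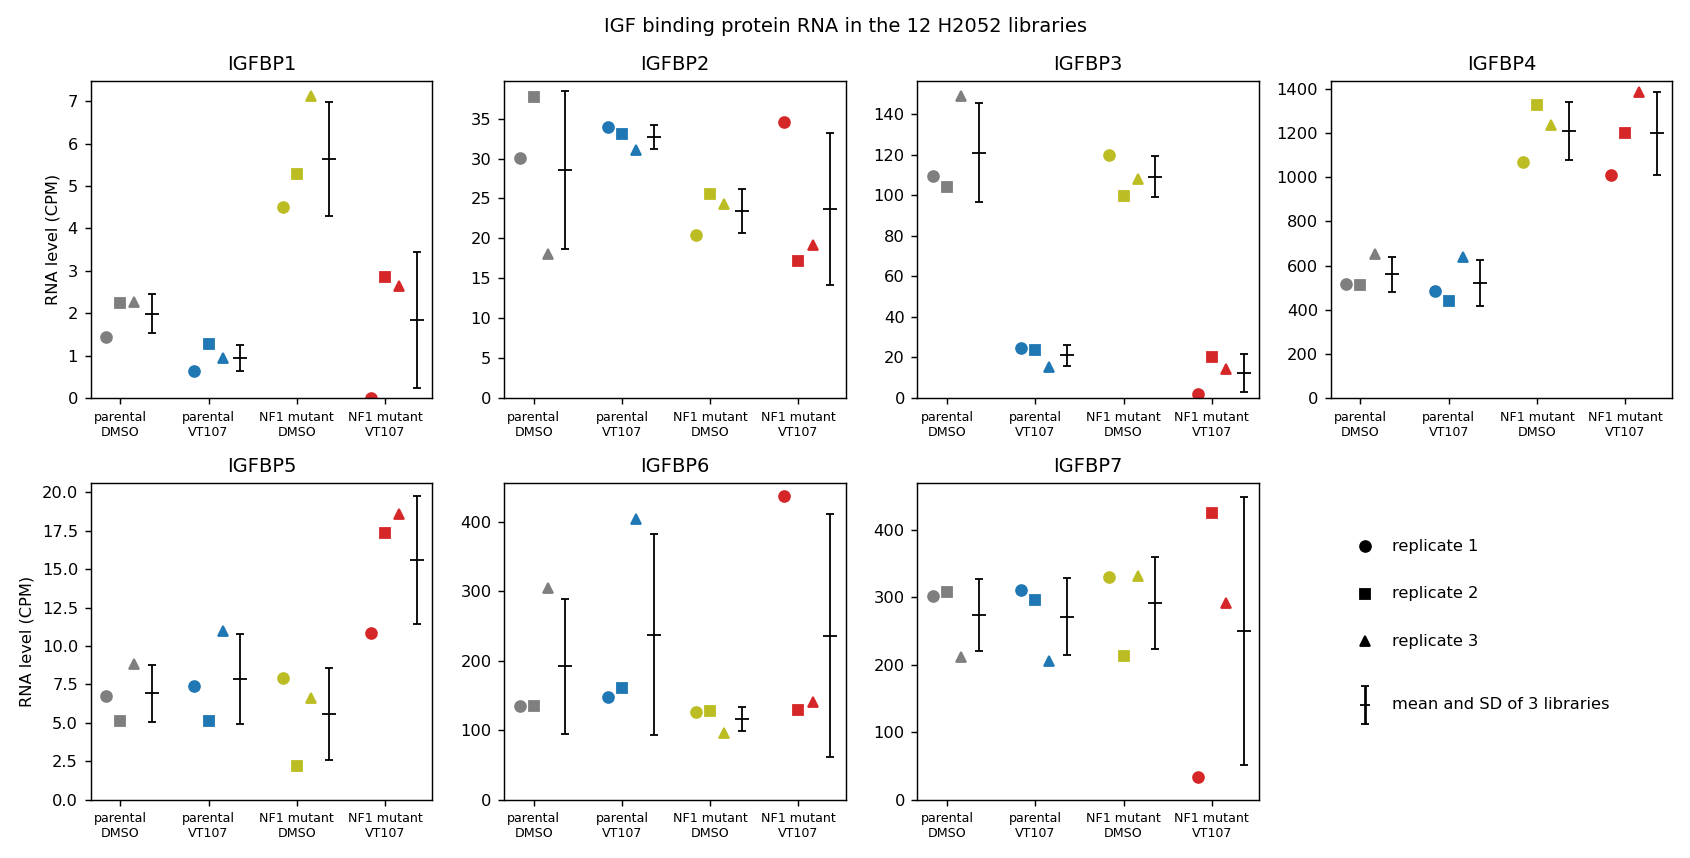
RNA level in CPM (y axis, linear from 0) of the 7 IGF binding proteins in each of the 12 H2052 libraries, by group (x axis), with symbols for the replicate number and black bars for the mean and SD of 3 libraries. IGFBP3 lies between 99.7 and 149 CPM in all DMSO libraries and between 2.0 and 24.6 CPM in all VT107 libraries, while IGFBP4 lies between 1010 and 1387 CPM in the NF1 mutant and between 441 and 653 CPM in the parental libraries.

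The second question was how the members responded to VT107 in NF1 mutant cells. Their libraries are not those of the parental contrast named above, although earlier results of these libraries were known as well. The lower IGFBP3 in parental cells was also known, so the p-values of IGFBP3 here are not independent support. By edgeR's quasi-likelihood test 0 of the 6 members tested passed the threshold, as did 0% of all 11605 genes (612 at an unadjusted p under 0.05). The adjustment gave IGFBP3, IGFBP5 and IGFBP6 the same edgeR adjusted p of 0.774, which therefore does not rank them. IGFBP1 was left out by the filter of 0.5 CPM in every library, because its count was 0 in 1 library. DESeq2 called 20 genes (0.172%), with IGFBP3 as the only member. The fit with library quality weights (voomWithQualityWeights) called 147 (1.27%), and edgeR without VT107 replicate 1 called 198 of 12443 genes (1.59%), with IGFBP3 and IGFBP5 as the members called in both.

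IGFBP3 was 120, 99.7 and 108 CPM in the NF1 mutant DMSO libraries and 2.0, 20.4 and 14.2 CPM in the VT107 libraries. All VT107 libraries were below all DMSO libraries, and the lowest value came from replicate 1, with 7 counts. The log2 fold change was -3.15 (SE 0.67, edgeR adjusted p = 0.774). It was -3.16 with DESeq2 (adjusted p = 0.00135), -2.79 with quality weights (adjusted p = 1.48e-05) and -2.63 without VT107 replicate 1 (SE 0.18, edgeR adjusted p = 1.04e-06). The estimate stayed between -3.76 and -2.63 over the 6 fits that each left out a library. The call thus depended on the test and on replicate 1, while the direction was negative in every fit run. Since the lower IGFBP3 in parental cells was known, these p-values describe the fits and are not independent support.

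IGFBP5 was 7.93, 2.21 and 6.63 CPM in DMSO and 10.9, 17.4 and 18.6 CPM in VT107. Every VT107 library was above every DMSO library, with 10 to 44 counts behind the DMSO and 38 to 85 behind the VT107 values. The log2 fold change was 1.47 (SE 0.48, edgeR adjusted p = 0.774) in all 6 libraries. With quality weights it was 1.75 (adjusted p = 0.0278). The fit that left out VT107 replicate 1 gave 1.66 (SE 0.34, edgeR adjusted p = 0.0227). DESeq2 did not call it (1.49, adjusted p = 0.378). Leaving out DMSO replicate 2, the lowest library, gave 1.1, the smallest of the leave-one-out values.

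IGFBP6 and IGFBP7 rested on VT107 replicate 1. IGFBP6 was 126, 127 and 95.8 CPM in DMSO and 437, 130 and 141 CPM in VT107. The groups did not overlap, but VT107 replicates 2 and 3 were close to the highest DMSO library. The log2 fold change was 1.01 (SE 0.49, edgeR adjusted p = 0.774) with replicate 1 and 0.22 (SE 0.14, edgeR adjusted p = 0.533) without it. IGFBP7 was 330, 213 and 332 CPM in DMSO and 33.7, 425 and 291 CPM in VT107. Its log2 fold change was -0.22 (SE 0.74) with all libraries and 0.30 (SE 0.18) without replicate 1, so the sign turned, and neither value was called. The same library held 0 counts of IGFBP1 and 2.0 CPM of CYR61, a matricellular TEAD target that was 164 and 222 CPM in VT107 replicates 2 and 3. Whether a cause common to these genes set that library apart was not tested.

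The remaining members showed no call in any fit of this comparison. IGFBP2 was 20.4, 25.6 and 24.3 CPM in DMSO and 34.6, 17.2 and 19.2 CPM in VT107 (log2 fold change 0.01, SE 0.33). Its highest value was again in replicate 1, and the value without that library was -0.36 (SE 0.19). IGFBP4 was 1067, 1325 and 1238 CPM in DMSO and 1010, 1198 and 1387 CPM in VT107 (log2 fold change -0.02, SE 0.23). IGFBP1 was 4.51, 5.29 and 7.12 CPM in DMSO and 0, 2.86 and 2.65 CPM in VT107, with each VT107 library below each DMSO library. Without replicate 1 it passed the filter, and its log2 fold change was -0.997 (SE 0.37, edgeR adjusted p = 0.228). The fit of all libraries without a filter gave -1.57 (SE 0.74, edgeR adjusted p = 0.790). Among the 6 members tested the groups did not overlap for 3 (IGFBP3, IGFBP5 and IGFBP6), against 15.9% of all 11605 genes. The family was selected with the lower IGFBP3 in parental cells and earlier results of these libraries known, so nothing is read from that share.

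**Figure D2:**
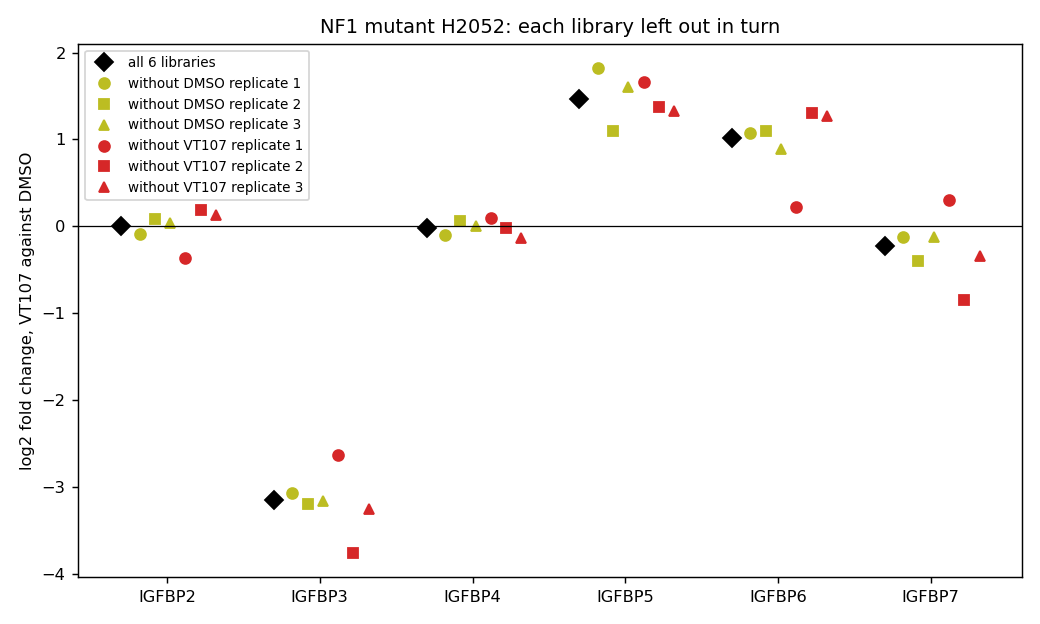
Log2 fold change of VT107 against DMSO in NF1 mutant H2052 (y axis) for the 6 members tested (x axis), with all 6 libraries (black diamonds) and with each library left out in turn (colored symbols). IGFBP3 stays between -3.76 and -2.63 and IGFBP5 between 1.1 and 1.82, while IGFBP6 drops to 0.22 and IGFBP7 turns to 0.30 without VT107 replicate 1.

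The difference of the VT107 responses between the genotypes holds the parental contrast and is described without a test. It was the NF1 mutant response minus the parental response on the log2 scale. For IGFBP3 it was -0.62 (SE 0.70), and leaving out NF1 mutant VT107 replicate 1 brought it to -0.12 (SE 0.34). With the parental replicate 3 libraries left out too, an alternative chosen after seeing the data, it was -0.49 (SE 0.22). For IGFBP5 it was 1.28 (SE 0.61), and 1.48 (SE 0.60) without that library. Its leave-one-out values ran from 0.915 without NF1 mutant DMSO replicate 2 (10 counts) to 1.64 without NF1 mutant DMSO replicate 1. In the alternative chosen after seeing the data the difference of IGFBP5 was 1.56 (SE 0.48), the largest of the members. There IGFBP1 was at -0.02 (SE 1.19), IGFBP2 at -0.36 (SE 0.24) and IGFBP4 at 0.24 (SE 0.21). IGFBP6 was at 0.02 (SE 0.20) and IGFBP7 at 0.29 (SE 0.26) in that fit. For IGFBP6 it was 0.71 (SE 0.74) with and -0.09 (SE 0.61) without replicate 1, and 1.33 without parental VT107 replicate 3. The values of IGFBP2 (-0.18, SE 0.45), IGFBP4 (0.09, SE 0.31) and IGFBP7 (-0.21, SE 0.84) were smaller than their standard errors. Without NF1 mutant VT107 replicate 1 they were -0.57 for IGFBP2 (SE 0.35), 0.19 for IGFBP4 (SE 0.27) and 0.31 for IGFBP7 (SE 0.35), so that IGFBP2 exceeded its standard error and the sign of IGFBP7 turned. IGFBP1 passed the filter of 0.5 CPM in every library only without replicate 1 and then gave 0.05 (SE 0.45).

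At baseline, IGFBP4 and IGFBP1 RNA were higher in NF1 mutant than in parental H2052 cells. In DMSO, 2 of the 7 members rose and none fell, a share close to the 27.4% of all 12475 genes called (1557 higher and 1863 lower). IGFBP4 was 513 to 653 CPM in parental and 1067 to 1325 CPM in NF1 mutant DMSO libraries, with no overlap. Its log2 fold change was 1.13 (SE 0.15, edgeR adjusted p = 0.00112), a 2.19-fold rise, and the leave-one-out values ran from 1.05 to 1.26. IGFBP1 was 1.45 to 2.25 CPM in parental and 4.51 to 7.12 CPM in NF1 mutant libraries, again with no overlap. Its log2 fold change was 1.51 (SE 0.32, edgeR adjusted p = 0.00906), a 2.85-fold rise on 18 to 31 counts per library. Both passed the threshold in every alternative in which they were tested. The summed mesothelial markers were also higher in NF1 mutant libraries, at 4381 to 5185 CPM against 2511 to 4203 CPM in DMSO and at 4133 to 8032 CPM against 2366 to 3670 CPM in VT107, and their part in these differences was not tested.

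None of the other members was called at baseline. IGFBP3 was at 104 to 149 CPM in parental and 99.7 to 120 CPM in NF1 mutant DMSO libraries (log2 fold change -0.13, SE 0.17). IGFBP6 was 136 to 304 CPM against 95.8 to 127 CPM, without overlap (log2 fold change -0.71, SE 0.32, edgeR adjusted p = 0.129). Without parental DMSO replicate 3, the library with 304 CPM, its value was -0.19. The groups thus did not overlap for 3 of 7 members, against 44.5% of all genes tested. IGFBP2 had a log2 fold change of -0.27 (SE 0.26, edgeR adjusted p = 0.477). Without parental DMSO replicate 3 it was -0.52 (edgeR adjusted p = 0.00542), and with quality weights -0.52 (adjusted p = 0.0107), both past the threshold. IGFBP5 (-0.28, SE 0.41) and IGFBP7 (0.11, SE 0.20) differed by less than their standard errors. The median log2 fold change of the 7 members was -0.13, against -0.01 over all genes.

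Under VT107 the genotypes differed most in IGFBP4 among the 6 members that passed the filter with all libraries. Its level was 441 to 640 CPM in parental and 1010 to 1387 CPM in NF1 mutant VT107 libraries, without overlap, and its log2 fold change was 1.19 (SE 0.33). It was the only 1 of the 6 members whose groups did not overlap, against 25.5% of all 11654 genes. IGFBP5 had the next largest value, 0.98 (SE 0.42), from 5.15 to 11.0 CPM in parental and from 10.9 to 18.6 CPM in NF1 mutant libraries. IGFBP3 was at -0.78 (SE 0.66), and -0.27 (SE 0.32) without NF1 mutant VT107 replicate 1. The remaining values were -0.48 for IGFBP2 (SE 0.37), -0.02 for IGFBP6 (SE 0.59) and -0.13 for IGFBP7 (SE 0.72). Without NF1 mutant VT107 replicate 1 they were -0.85 for IGFBP2 (SE 0.23), -0.82 for IGFBP6 (SE 0.46) and 0.40 for IGFBP7 (SE 0.27). Without parental VT107 replicate 3 the value of IGFBP6 was 0.60, so its sign depended on the library left out. IGFBP1 passed the filter only without NF1 mutant VT107 replicate 1 and then gave 1.54 (SE 0.46). This contrast holds the parental VT107 libraries and was not tested.

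**Figure D3:**
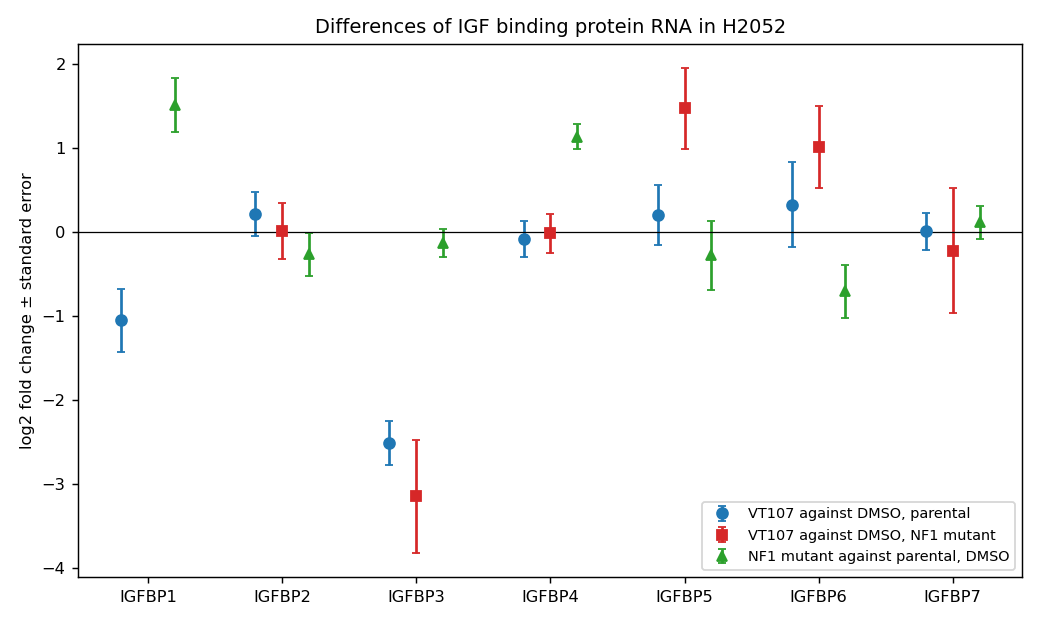
Log2 fold change with its standard error (y axis) of each member (x axis) for VT107 against DMSO in parental (circles) and NF1 mutant H2052 cells (squares) and for NF1 mutant against parental cells in DMSO (triangles). IGFBP3 is at -2.52 and -3.15 in the VT107 contrasts and at -0.13 in the genotype contrast. IGFBP4 and IGFBP1 are above 1 in the genotype contrast alone. IGFBP1 has no value for VT107 in NF1 mutant cells, where it did not pass the filter.

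The order of levels across the 4 H2052 groups differed between members. By group mean, IGFBP3 ran from parental DMSO (121 ± 24.5 CPM, SD, n = 3) to NF1 mutant DMSO (109 ± 10.2), parental VT107 (21.0 ± 5.21) and NF1 mutant VT107 (12.2 ± 9.37). Neighbors of the same treatment lay within their spread, and the gap between the treatments was larger than it. For IGFBP4 the NF1 mutant groups (1210 ± 131 in DMSO and 1198 ± 189 in VT107) were above the parental groups (560 ± 79.9 and 523 ± 104), and within a genotype the treatments overlapped. IGFBP1 was highest in NF1 mutant DMSO (5.64 ± 1.34) and lowest in parental VT107 (0.951 ± 0.310), with parental DMSO (1.99 ± 0.462) and NF1 mutant VT107 (1.84 ± 1.60) between them and overlapping. IGFBP5 had its highest mean in NF1 mutant VT107 (15.6 ± 4.15), whose lowest library (10.9 CPM) lay below the highest of parental VT107 (11.0 CPM). The other 3 groups overlapped, with means between 5.59 ± 3.0 and 7.85 ± 2.94. For IGFBP2 the group means ran from 23.4 to 32.7 CPM, for IGFBP6 from 116 to 238 CPM and for IGFBP7 from 250 to 292 CPM. The neighbors in these orders differed by less than the SD of at least 1 of them.

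For each member above 0.5 CPM in all 12 H2052 libraries, the genes with the most similar profile were listed by the root mean square (RMS) difference of mean-centered log2 CPM over those libraries, among 11432 genes. The 5 nearest to IGFBP3 were SNAPC1 (0.705), ANKRD1 (0.836), CTGF (0.845), WTIP (0.987) and SDPR (1.01), while the median over all genes was 1.79. SNAPC1 encodes a subunit of the small nuclear RNA activating complex, and its mean was 331 CPM in parental DMSO, 66.6 in parental VT107, 240 in NF1 mutant DMSO and 37.5 in NF1 mutant VT107 libraries. ANKRD1 is a muscle ankyrin repeat protein, with means of 144, 31.1, 60.8 and 11.3 CPM in the same order. In NF1 mutant VT107 replicate 1 IGFBP3 was at -4.13 from its own mean, and WTIP alone of the 5 was lower. The nearest genes of IGFBP2 were MED4 (0.193), DIAPH2 and MLLT4. Those of IGFBP4 were NAPA (0.163), HDGF and LAMTOR1, those of IGFBP5 FMOD (0.395), SERPINB5 and RP11-89K11.1, and those of IGFBP6 CSPG4 (0.152), MXRA8 and CHPF. For IGFBP7 they were ENSG00000250610, whose reads are the same, EXOC5 (0.124) and the overlapping POLR2B (0.158). The 12 libraries share treatment, genotype and the libraries that stand apart, so the likeness is a description.

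**Figure D4:**
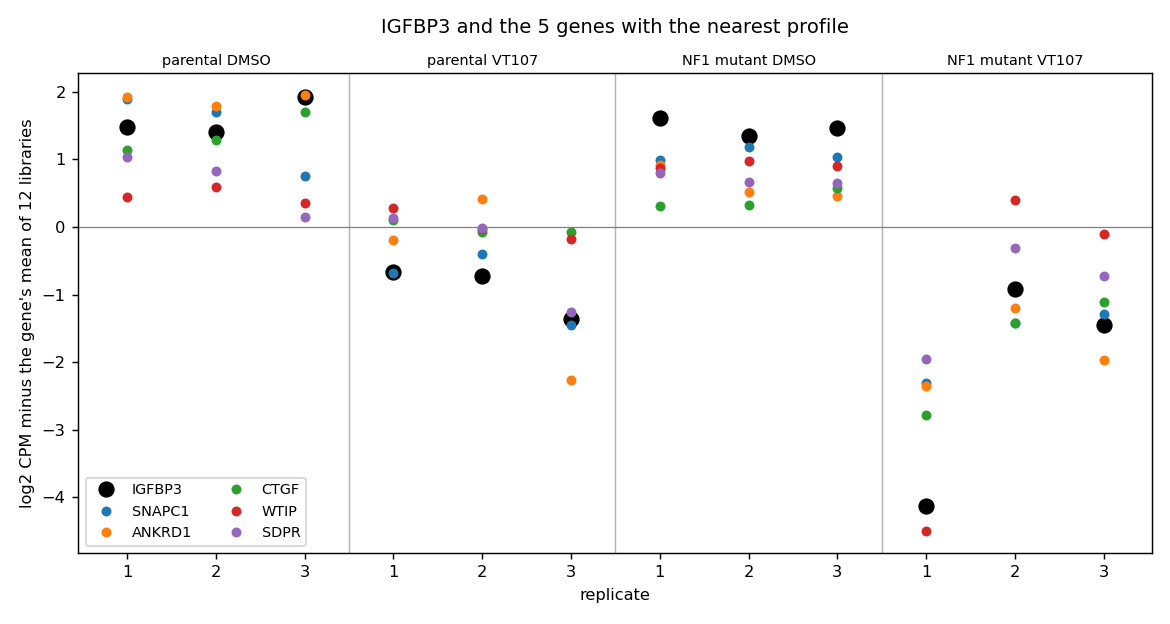
Log2 CPM minus the gene's mean over the 12 H2052 libraries (y axis) for IGFBP3 (large black points) and the 5 genes with the nearest profile (colored points), by replicate and group (x axis). IGFBP3 lies between 1.35 and 1.93 in the DMSO libraries and between -4.13 and -0.66 in the VT107 libraries, with the lowest value in NF1 mutant VT107 replicate 1.

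The IGF axis around the members was described with a list of 32 genes, namely ligands, receptors, adaptors, proteases and their inhibitors, IGFBP3 binding membrane proteins, IGFALS and other secreted proteins with an IGFBP domain. Of the ligands, IGF1 did not exceed 0.509 CPM in any H2052 library and was 0 in all NF1 mutant libraries. IGF2 was 3.56 to 11.3 CPM in parental and 3.14 to 6.49 CPM in NF1 mutant libraries, and did not pass the test for VT107 in NF1 mutant cells (-0.22, SE 0.34) or at baseline (-0.46, SE 0.38). INS, INSRR, IRS4, IGFALS and WISP1 were at 0 in all 12 libraries. The signaling receptor IGF1R was 14.6 to 24.0 CPM in parental and 18.02 to 26.5 CPM in NF1 mutant libraries. Its log2 fold change was 0.21 (SE 0.26) for VT107 in NF1 mutant cells and -0.01 (SE 0.22) at baseline.

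At baseline 20 of the 32 genes were tested, 1 rose and 3 fell, a share no higher than the 27.4% of all genes called. INSR, the insulin receptor, was 17.8 to 24.5 CPM in parental and 8.65 to 11.5 CPM in NF1 mutant DMSO libraries, a log2 fold change of -1.002 (SE 0.21, edgeR adjusted p = 0.00925). IGF2R, which clears IGF2 into lysosomes, was 35.3 to 75.1 CPM against 15.7 to 33.2 CPM (-1.06, SE 0.32, edgeR adjusted p = 0.0386). CTGF, a matricellular protein with an IGFBP domain, was 63.9 to 94.2 CPM against 35.9 to 43.2 CPM (-0.98, SE 0.19, edgeR adjusted p = 0.00579). TMEM219, a membrane protein that binds IGFBP3, was 46.6 to 74.1 CPM against 95.0 to 106 CPM and rose (0.87, SE 0.20, edgeR adjusted p = 0.0127). Without parental DMSO replicate 3 the list had 10 calls, without NF1 mutant DMSO replicate 1 it had 1 and without NF1 mutant DMSO replicate 2 it had 2, with CTGF among them each time. The fit of all 4 H2052 groups together called 0 of the list. The median of the 20 was -0.01, the same as over all genes.

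For VT107 in NF1 mutant cells 0 of 19 axis genes passed edgeR's test, and 12 of the 19 values were negative, against 48.3% of all genes. CTGF was 35.9, 35.95 and 43.2 CPM in DMSO and 4.0, 10.6 and 13.3 CPM in VT107 (-2.04, SE 0.43, edgeR adjusted p = 0.774). DESeq2 (adjusted p = 0.00410), the fit with quality weights (adjusted p = 0.00124) and edgeR without VT107 replicate 1 (-1.69, adjusted p = 0.000255) called it. The last fit called 2 further genes, CYR61 (-1.24, adjusted p = 0.00531) and LRP1, an endocytic receptor (0.74, adjusted p = 0.0235). The list was chosen with earlier results of these data known, and CYR61 and LRP1 were named after their values were seen. These calls, that of CTGF included, are therefore not independent support. In parental cells, with no test, CTGF was at -1.41 (SE 0.20), CYR61 at -1.11 (SE 0.20), and the median of the 21 genes fitted was -0.05.

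H226 cells added little on the members. The H226 table used here holds no row of IGFBP1 or IGFBP3. Where an abundant gene lies inside a gene of the opposite strand with a parental H2052 count at least 20 times lower, the outer gene had the higher H226 count in 14 of the 14 pairs with both rows. In these pairs the H226 counts thus followed the opposite strand, so the H226 values below belong to the rows as listed and may not measure the named genes. IGFBP4 had 27.8 to 41.6 CPM, IGFBP7 2.35 to 9.0 CPM and IGFBP5 0.604 to 1.57 CPM, the last on 1 or 2 counts per library. IGFBP2 and IGFBP6 were below the filter and at 0 in several libraries. For VT107 against DMSO, 0 of the 3 members tested were called, while 19.6% of all 12765 genes were. The log2 fold changes were -0.07 for IGFBP4 (SE 0.20), 0.09 for IGFBP5 (SE 0.73) and -0.37 for IGFBP7 (SE 0.46). Of 15 axis genes tested, INSR (0.95, SE 0.25, edgeR adjusted p = 0.00799) and CRIM1, a membrane protein with an IGFBP domain (-0.69, SE 0.15, edgeR adjusted p = 0.00140), were called under the same limit, against the 19.6% of all genes, and without H226 VT107 replicate 1 there were 4 calls.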

How the data were processed

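The authors deposited raw counts per gene, made from single-end reads of a NextSeq500; the submitters' processing notes name bcl2fastq 2.20.0.422 and hg19. The sources used here do not give the aligner, counting program, annotation, strandedness or kit. Counts of repeated IDs (63 rows in H2052, 10 in H226) were summed. A further 16 columns of siRNA-transfected samples matched no described sample and were not used. The H226 table also holds the authors' own comparison of VT107 with DMSO (fold changes and p-values), which was not used.

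Genes that reached 0.5 CPM in all libraries compared were normalized by TMM and tested with edgeR 4.0.16 (quasi-likelihood, R 4.3.3), with Benjamini-Hochberg adjustment over all genes and a threshold of 0.05. The SE was taken as |log2 fold change|/√F. CPM values use TMM factors over all libraries of a table. Alternatives used DESeq2 1.42.0, limma 3.58.1 (voomWithQualityWeights), RLE factors, other filters, a replicate block, fits without each library and all 4 H2052 groups in 1 fit. The edgeR fits were tested on simulated data with the same dispersion (spread between replicates beyond counting error) for all genes. No simulated library stood apart from its group, so that test does not cover such a library. With 3 libraries a side an exact permutation p cannot fall below 0.1, so none was used. The p-values set a difference against the spread between the replicate libraries. The labels name no separately edited NF1 mutant populations, so the spread between such populations was not measured.

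Replicate numbers were taken to pair libraries where each correlation of same-numbered deviations from the group means exceeded 0.1. This held in parental cells (0.613, 0.488 and 0.795), where replicate 3 stood apart and replicates 1 and 2 also correlated with each other (0.517 and 0.607).

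The members and lists were chosen with earlier results of these data known. All members were named in each comparison, with IGF1, IGF2, IGF1R, IGF2R, INSR and other axis genes called in a tested comparison, and the 5 genes nearest to IGFBP3 and 3 nearest to each other member. CYR61 and LRP1 were added after their values were seen.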

Additional observations from a re-analysis of the deposited data

How the results depend on the processing

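For VT107 in NF1 mutant cells the number of members called was 0 with all libraries, 1 with DESeq2 and 2 with voomWithQualityWeights, and ran from 0 to 2 over the fits that left out a library. The axis list there went from 0 to 1 with DESeq2, to 1 with voomWithQualityWeights, and from 0 to 3 over the left-out libraries. At baseline the members called were 1 in place of 2 in the fit of all 4 H2052 groups, where IGFBP1 was not tested, and the axis list had 0 calls there, 10 with voomWithQualityWeights and 1 to 10 over the left-out libraries, against 4. In H226 the axis list ran from 2 to 4 calls over the left-out libraries, against 2. The log2 fold change of IGFBP3 in parental cells was -2.52, moved to -2.18 with voomWithQualityWeights and to -2.11 without both replicate 3 libraries, an alternative chosen after seeing the data. The cause of these shifts was not tested. With the replicate block IGFBP3 was -2.51 in parental and -3.48 in NF1 mutant cells, 0 members were called for VT107 in NF1 mutant cells and 2 at baseline, and no member's call changed. Of the single-member values, 431 kept their side of the threshold or moved by less than the replicate spread, 7 gained a call and 2 moved further. IGFBP1 and IGFBP5 rest on at most 31 and 151 counts per library, and a call that was missed does not show that a member did not change.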
